A study of Caenorhabditis elegans with 6 samples.

Results

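The transcriptome of untreated adult worms was described from the 3 control libraries of a series of 6, without the libraries of treated worms. A gene was counted as detected where its level was at least 1 CPM (a count scaled to a library total of 1000000 counts on genes) in each of the 3 libraries, and 11219 of the 46904 gene identifiers in the deposited table passed. The worms were N2, the standard reference strain of the nematode *C. elegans*, whose adults are mostly self-fertilising hermaphrodites. They were synchronised by arrest as L1 larvae, the first larval stage, grown at 20 °C on plates seeded with the *E. coli* strain OP50, moved as young adults to seeded control plates without drug, transferred daily and collected on day 5, after washes meant to remove eggs and larvae. The labels also give the age as 5 days and do not say from when it was counted. RNA of whole worms was made into stranded mRNA libraries and sequenced in pairs of reads. All cells of the animal contribute to a library, so fewer cells of a type and less RNA per cell cannot be told apart. The labels number the libraries 1 to 3 and do not say whether they came from separate cultures (each library's name also carries an unexplained suffix), so the spread given here is that between these libraries and may be technical. With 1 group there is nothing to test, and every value is a description of these 3 libraries.

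A hermaphrodite lays most of its eggs in its first days as an adult. Its intestine makes vitellogenins, the yolk proteins that are secreted, taken up by growing oocytes and left in the body cavity when few oocytes remain. Most of the adult's cell nuclei lie in the gonad, where germ cells enter meiosis, load RNA for the embryo and build the proteins of the eggshell, and an animal that has used up its own sperm no longer fertilises its oocytes. The body around the gonad is made of cells that do not divide, among them muscle, intestine, hypodermis under a collagen cuticle, and neurons.

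The libraries held 21245713, 21154440 and 21122852 counts on genes, a nearly equal depth, at which 1 CPM is about 21 reads, and the median counting error of genes at 1 to 2 CPM was 0.168 of their level. Levels are given as CPM after TMM, a scaling that makes most genes equal between libraries on average and that used factors of 1.12, 0.853 and 1.047 for replicates 1, 2 and 3. Scaled by totals alone, the median gene deviated from its own mean by 0.12, -0.22 and 0.08 on the log2 scale, against -0.03, 0.02 and 0.02 after TMM. No pair of libraries was one library deposited in duplicate. The chi-square of the counts per degree of freedom was 125 for replicates 1 and 2, 74.1 for 1 and 3 and 121 for 2 and 3, where sampling noise alone gives about 1. Replicates 1 and 3 were the closest pair, with 2.99% of the 7401 detected genes at a mean of 10 CPM or more at least 2-fold apart. That share was 13.4% between 1 and 2 and 11.3% between 2 and 3. Replicate 2 thus stood apart from the others, and results that rest on it are given with its values.

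The detected genes were 10910 of the 19901 annotated protein-coding genes (54.8%), 236 pseudogenes, 35 other non-coding RNAs, 19 long intergenic RNAs, 6 ribosomal RNA loci, 6 antisense RNAs, 3 snoRNAs and 4 identifiers without an entry in the annotation. None of the 15363 piRNA, 261 miRNA and 634 tRNA genes was detected, in a library kit that selects polyadenylated RNA. A count in at least 1 library was found for 20686 identifiers, and 1604 protein-coding genes had none. The median detected gene had a mean level of 20.8 CPM, with percentile 10 at 2.80 and percentile 90 at 141.6 CPM. Of all detected genes, 1682 lay at 100 CPM or more, 146 at 1000 or more and 4 at 10000 or more. Replicate 2 alone kept 674 genes out that were at 1 CPM in both others, against 153 for replicate 1 and 155 for replicate 3.

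Detection differed between chromosomes and gene families. Of the protein-coding genes, 71.1% were detected on chromosome III and 66.9% on chromosome I, which hold many of the worm's housekeeping and germline genes. The share was 55.1% on X, 54.7% on IV, 53.7% on II and 40.04% on V, where large receptor families lie. The detected genes of X had the lowest median level, 6.65 CPM per kb of exon (level divided by exon length, the scale used whenever genes are compared), against 12.2 to 19.3 for the autosomes. In the single libraries the median of X was 6.87, 6.22 and 6.70 CPM per kb, below every autosome in each. The vitellogenins, of which several are X-linked, hid this in the totals: genes of X took 13.03%, 15.96% and 15.3% of all counts, and 6.74%, 7.11% and 7.51% once yolk genes were left out. Among families of at least 40 protein-coding genes, all 41 genes of mitochondrial ribosomal proteins with the symbol mrpl were detected, 81 of 94 unc genes, which were named for uncoordinated movement, and 45 of 58 transthyretin-related ttr genes. Of the nuclear hormone receptors (nhr) 136 of 269 were detected, of the cytochromes P450 (cyp) 39 of 74, of the C-type lectins (clec) 89 of 240 and of the collagens (col) 57 of 156. At the other end stood the chemoreceptors, which act in few sensory neurons. Of 1364 genes with symbols of the sr or str type, 41 were detected (3.01%) and 870 had any count. This type was matched by its letters alone and may take in genes that are not chemoreceptors. Within it, 0 of 220 srh genes and 4 of 193 str genes were detected.

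Yolk genes led the transcriptome by level in CPM, the scale of all ranks given here, on which a long gene collects more reads than a short one at equal transcript number. The gene *vit-2* (WBGene00006926, chromosome X from 5101042 to 5106169 in the WBcel235 assembly) was at 31582, 60282 and 44239 CPM in replicates 1, 2 and 3, and values are given in this order throughout. Its mean was 45368 ± 14383 CPM (SD, n = 3). It was followed by *vit-5* at 27467, 48555 and 35012 CPM and *vit-6* at 21816, 32869 and 24984 CPM. In each library the order was *vit-2*, *vit-5*, *vit-6*, although their ranges over the libraries overlapped, and the lowest value of *vit-6* was still above the highest of every other gene. These 3 genes alone took 9.06%, 12.1% and 10.9% of all counts. The remaining members of the family were more than 10-fold lower, with *vit-3* at 1104, 2078 and 1337 CPM, *vit-4* at 1012, 1696 and 1221 CPM and *vit-1* at 635, 1619 and 1042 CPM. The 6 genes are similar in sequence, those of *vit-3*, *vit-4* and *vit-5* the most, so the division of reads among them depends on how reads with several matches were counted and is uncertain. All 6 were lowest in replicate 1 and highest in replicate 2, and their summed level was 83618, 147098 and 107836 CPM.

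**Figure D1:**
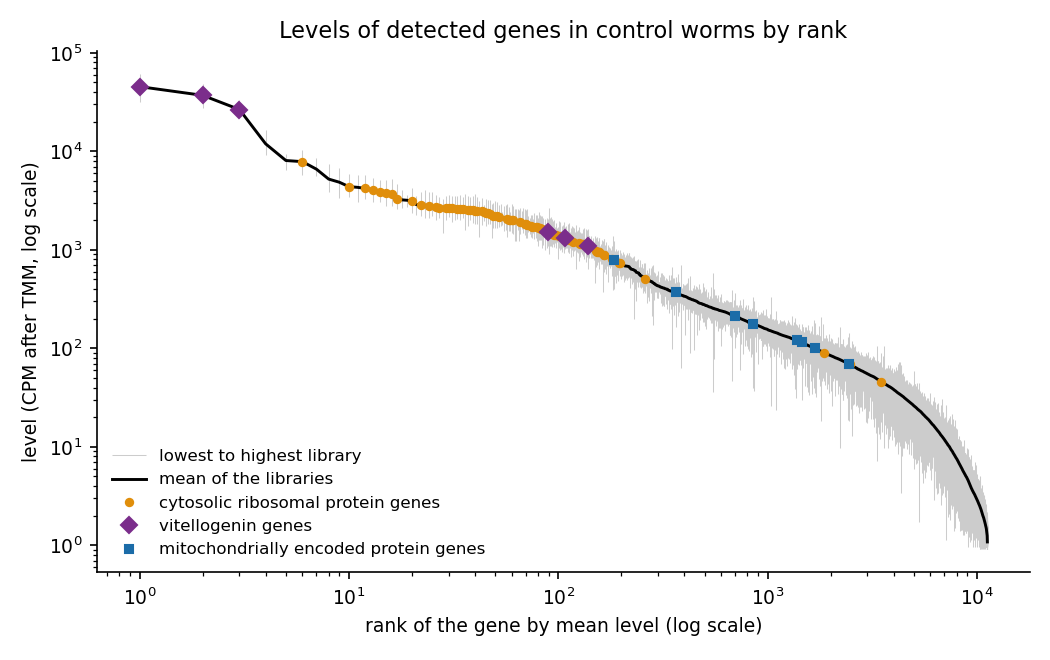
Level of each detected gene (CPM after TMM, log scale) against its rank by mean level (log scale) in the 3 control libraries; the black line is the mean and grey bars run from the lowest to the highest library. Of the vitellogenin genes (diamonds) 3 hold ranks 1 to 3, and ribosomal protein genes (circles) crowd the ranks below, while the mitochondrially encoded protein genes (squares) begin at rank 185.

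Genes of the translation machinery made up most of the next ranks. Of the 100 most abundant genes, 54 encode proteins of the cytosolic ribosome, and 80 of the 81 such genes were detected, at a median of 3563 CPM per kb against 13.9 for all detected genes. Together the ribosomal protein genes took 15.7%, 18.4% and 12.5% of the counts. The most abundant was *rla-0*, the large stalk protein of the ribosome, at 7627, 10218 and 5718 CPM. Below it came *rpl-7* at 3912, 5818 and 3406 CPM, *rps-3* at 3505, 5805 and 3279.9 CPM, *rpl-2* at 3841, 5361 and 3025 CPM, *rps-8* at 3493, 5087 and 3044 CPM and *rpl-4* at 3537, 5134 and 2769 CPM, all within the 15 most abundant genes. Elongation factors stood beside them. The gene *eef-1A.1*, for the factor that brings tRNAs to the ribosome, had rank 4 at 10365, 16307 and 9079.9 CPM, and *eef-2*, for the factor that moves the ribosome along the mRNA, was at 5604, 8561 and 5582 CPM. A large-subunit ribosomal RNA locus, *rrn-3.1*, remained at 4301, 7506 and 3875 CPM in these mRNA libraries, and all rRNA loci held 0.544%, 0.693% and 0.439% of the counts. The copies of rRNA genes are near-identical, so this locus stands for all of them. Apart from *vit-6* and *eef-1A.1*, the ranges of neighbours among the 15 most abundant genes overlapped over the libraries. Within each library the order of the first 4 genes, of *eef-1A.1* before *far-2*, of *rla-0* before *eef-2* and of *eef-2* before *rrn-3.1* was nevertheless the same, and the order of *far-2* and *rla-0* and of each pair of neighbours from *rrn-3.1* down changed between libraries. Replicate 2 was the highest library for all 80 ribosomal protein genes at 10 CPM or more and all 8 elongation genes, where 41.3% of all such genes were highest there. Replicate 3 was the lowest for 74 and 8 of them, against 26.1% of all genes. These shares of all genes cover every exon length and level. As given below, the ratio of replicate 2 to the others was in general higher for short and for abundant genes. Within the ribosome the median CV, the SD over the mean, was 0.326, against 0.206 for all genes at 10 CPM or more. The CV ran from *rps-27* at 924, 1884 and 942 CPM (CV 0.44) to *rpl-29* at 724, 849 and 631 CPM (CV 0.149). Among elongation genes it ran from *iff-2*, an initiation factor 5A gene, at 246, 432 and 225 CPM to *eef-1G* at 2814, 3528 and 2282 CPM.

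The 100 most abundant genes held 32.6%, 40.4% and 32.6% of the counts, the 10 most abundant 13.7%, 17.6% and 15.1%. Replicate 2 was the most concentrated on its leading genes. Besides the yolk and translation genes, 6 of the 100 were oocyte or eggshell genes, 7 collagens and 4 intestinal markers. The gene *far-2*, which encodes a secreted protein that binds fatty acids and retinol, was at 6501, 9446 and 8239 CPM, at rank 5 by CPM and highest per kb of exon (13173 CPM per kb, exon length 612 bases). Next per kb were *vit-2* (9195), *eef-1A.1* (7754), *rla-0* (7603), *vit-5* (7599.9) and 5 short genes. These were *rps-23* at 2657, 4663 and 2584 CPM, *rps-25* at 2240.1, 3575 and 1988 CPM, *rla-1* at 2497, 3517 and 1913 CPM, *Y119D3B.21* at 992, 1528 and 1045 CPM and *rpl-39* at 1081, 1741 and 1119 CPM, each with exons of 201 to 482 bases. Per kb they lay between 5565 and 6849.6 CPM.

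The germline was represented in full on the side of the oocyte. All 26 of 26 oocyte and eggshell genes and all 24 of 24 genes of mitotic and meiotic germ cells were detected, at medians of 391 and 53.6 CPM per kb. The eggshell genes *perm-4* and *perm-2*, needed for the permeability barrier of the egg, were at 3334, 6850.4 and 4381 CPM and at 1589.7, 3692 and 2411 CPM. The gene *cpg-2*, which encodes a chondroitin proteoglycan of the eggshell, was at 3049, 5765 and 4111 CPM. The maternal regulator *pos-1*, a zinc-finger protein that controls translation in the early embryo, was the steadiest of the list at 813, 948 and 846 CPM (CV 0.0813). The chitin synthase gene *chs-1* was the most variable at 78.1, 63.4 and 168 CPM (CV 0.55), highest in replicate 3. Of the 26 genes of this list 21 were highest in replicate 2, against 41.3% of all genes, and 23 were lowest in replicate 1, against 2661 of 7401 genes (35.95%) over all. These counts are after TMM. The median log2 deviation of a listed gene from its own mean was then -0.35, 0.25 and 0.002. By library totals it was -0.18, 0.04 and 0.08, highest in replicate 3. The sum of the list was highest in replicate 2 on both scales. In the mitotic and meiotic germline, *pcn-1*, the sliding clamp of DNA replication, led at 826, 1307 and 840.2 CPM, followed per kb by *gld-1*, a translational repressor of the meiotic germline, at 511, 889 and 746 CPM. The replication helicase gene *mcm-6* was the steadiest at 234.6, 270.3 and 277 CPM, and *fbf-1*, a regulator of germline stem cells, the most variable at 7.31, 14.2 and 18.2 CPM. Of the 24 germ cell genes 12 were highest in replicate 3, against 30.6% of all genes, 9 were highest in replicate 2, and 16 were lowest in replicate 1. By summed level the germ cell list was highest in replicate 2 after TMM and in replicate 3 by library totals.

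Sperm, embryo and moulting genes were low. Of 43 sperm gene identifiers 7 were detected, 2 had no count, and the whole list summed to 65.6, 129 and 90.4 CPM. Of the major sperm protein genes, which drive the crawling of nematode sperm, *msp-59* was the highest per kb at 3.78, 7.48 and 5.20 CPM, and *ssp-10*, a sperm-specific gene, was next at 1.89, 5.16 and 3.26 CPM. The msp genes are near-identical copies and their single values are uncertain. By CPM the highest was *spe-41*, a channel gene needed for fertilisation, at 36.9, 29.8 and 17.6 CPM. It was highest in replicate 1, where the sum of the list was lowest, and made up much of that sum. None of the 12 genes switched on in the early embryo was detected, and their sum was 2.77, 2.05 and 2.80 CPM, where *end-1*, a regulator of gut fate, was at 0.672, 0.111 and 0.317 CPM. Of 26 genes active in larval moults 12 were detected, all below 30 CPM, with *dpy-17*, a cuticle collagen gene, at 18.9, 25.8 and 12.1 CPM and *mlt-7*, a peroxidase gene of the cuticle, at 27.8, 21.2 and 25.4 CPM. The collagen genes *rol-6* at 0.084, 0.111 and 0.0452 CPM and *dpy-7* at 0.21, 0.388 and 0.226 CPM, markers of larval cuticle synthesis named after their values were seen, were not detected.

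**Figure D2:**
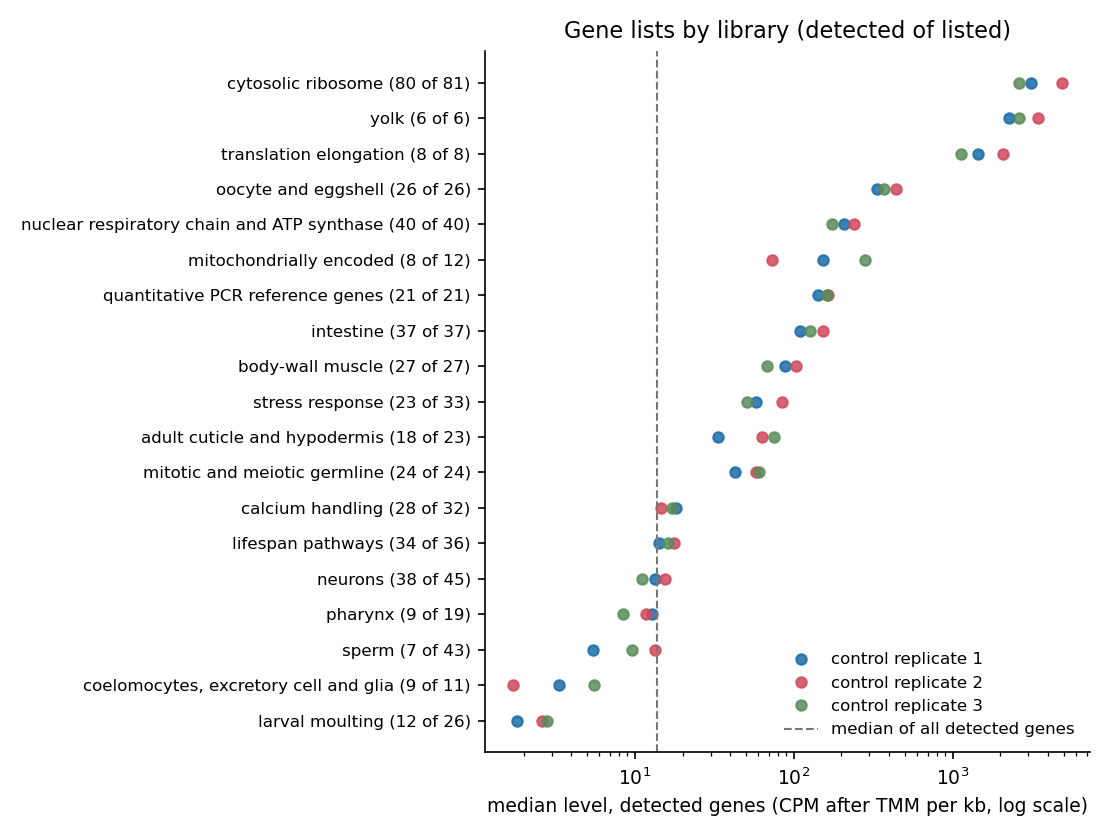
Median level of the detected genes of each list (CPM after TMM per kb of exon, log scale) in control replicates 1, 2 and 3, with the number detected of those listed beside each name; the dashed line is the median of all detected genes (13.9 CPM per kb). Ribosome, yolk and elongation genes lie far to the right, sperm, moulting and coelomocyte, excretory and glial genes to the left, and the mitochondrially encoded genes are the most spread between libraries, from 73.2 to 282 CPM per kb.

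Marker genes of every somatic tissue listed were detected, at levels that differed by tissue. Intestine genes were detected 37 of 37, at a median of 121 CPM per kb. The saposin-like *spp-5*, an antimicrobial effector, was at 820.0, 1164 and 1067 CPM and the aspartic protease gene *asp-6* at 2694, 3602 and 3255 CPM. The lysozyme gene *lys-8* was nearly the same in all libraries at 575, 628 and 634 CPM (CV 0.053), and the metallothionein gene *mtl-1*, which responds to metals, was the least even at 6.34, 10.6 and 27.4 CPM (CV 0.751). It was 1 of 4 intestinal genes with a CV of 0.5 or more, of 36 at 10 CPM or more, where 5.72% of all 7401 such genes reached that CV. Body-wall muscle genes were detected 27 of 27, at 86.5 CPM per kb. Per kb they were led by *ttr-51*, a transthyretin-related gene on the list, at 470.1, 772 and 651 CPM, and by the myosin light chain gene *mlc-2* at 496, 640.0 and 376 CPM. The myosin chaperone gene *unc-45* varied least at 34.4, 44.1 and 42.4 CPM and the integrin gene *pat-2* most at 36.8, 14.4 and 27.2 CPM. Replicate 3 was lowest for 18 of 25 muscle genes, against 26.1% of all genes, and the sum over the list was 9219.7, 12072 and 7143 CPM, highest in replicate 2 after TMM and in replicate 1 by library totals. Hypodermis and adult cuticle genes were detected 18 of 23, at 55.7 CPM per kb. The collagen genes *col-119* at 1475, 3314 and 3155 CPM and *col-181* at 1343, 2903 and 3137 CPM led them and were about 2-fold lower in replicate 1 than in the others. The peptide gene *nlp-24*, of a group induced by skin infection, was at 5.13, 19.1 and 12.8 CPM and *dod-6*, named as a gene downstream of the regulator DAF-16, at 50.7, 74.6 and 64.2 CPM. Of 15 genes of the list at 10 CPM or more, 5 were at least 2-fold below both others in replicate 1, against 1.23% of all such genes. The sum of this list was highest in replicate 2 after TMM and in replicate 3 by library totals.

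Genes of small tissues lay near the middle of all detected genes or under it. Neuronal genes were detected 38 of 45 at a median of 13.04 CPM per kb, and 23 of them reached 10 CPM. The synaptobrevin gene *snb-1*, a core protein of synaptic vesicles, was at 207, 296 and 229.8 CPM, and *flp-14*, a FMRFamide-like neuropeptide gene, at 41.8, 48.5 and 35.5 CPM. The gene *unc-25*, for the enzyme that makes GABA, was nearly even at 12.8, 12.7 and 10.8 CPM, while *unc-13*, a long gene for a factor that primes synaptic vesicles, was low in replicate 2 at 19.3, 5.54 and 13.9 CPM. The median CV of the list, 0.155, was below that of all genes, 0.206. Pharynx genes were detected 9 of 19, led per kb by the troponin genes *tni-4* at 58.7, 51.1 and 40.5 CPM and *tnc-2* at 23.02, 17.1 and 12.302 CPM. Another troponin gene, *tnt-4*, was highest in replicate 1 at 20.8, 8.20 and 9.54 CPM, and the pharyngeal gland gene *phat-3* was steady at 10.3, 11.8 and 10.8 CPM. Replicate 1 was the highest library for 6 of the 7 pharynx genes at 10 CPM or more, against 28.1% of all genes, and the sum of the list was 336, 237 and 194 CPM, highest in replicate 1 by library totals as well. Of the coelomocyte, excretory cell and glia list, 9 of 11 were detected, with the glutamate transporter gene *glt-1* at 141, 183 and 147 CPM, the proton pump subunit gene *vha-5* at 62.6, 84.5 and 99.8 CPM and the aquaporin gene *aqp-8* at 17.4, 32.8 and 25.7 CPM. The sums of the neuron and the coelomocyte list were highest in replicate 2 after TMM, but in replicates 1 and 3 by library totals, and the median level of the coelomocyte list was lowest in replicate 2 (3.33, 1.71 and 5.52 CPM per kb). The single gene *glt-1* made up much of the sum of the coelomocyte list, which was 255, 323 and 319 CPM.

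The respiratory chain is built from proteins of both genomes, and the nuclear and the mitochondrial genes had unlike patterns over the libraries. All 40 of 40 nuclear genes of the list, which also covers ATP synthase, were detected at a median of 205 CPM per kb. They were led by *ant-1.1* at 2185, 3843 and 2227 CPM and *cyc-2.1*, a cytochrome c gene, at 637, 891 and 512 CPM. The product of *ant-1.1* is the carrier that exchanges ADP for ATP and is not a subunit of the chain. The median CV of the nuclear genes was 0.265. It ran from *sdha-2*, a subunit of succinate dehydrogenase, at 59.3, 67.9 and 69.7 CPM to *cox-6C*, a subunit of cytochrome oxidase, at 169, 276 and 124 CPM. Replicate 2 was highest for 35 of 39, against 41.3% of all genes, a share that covers every exon length and level. Of the 12 proteins encoded in mitochondrial DNA, 8 had detected genes. COX1, the catalytic core of cytochrome oxidase, was at 732, 397 and 1224 CPM and COX3 at 413, 164 and 529 CPM. COX2 was at 157, 39.5 and 329 CPM, CYTB, the cytochrome b gene, at 177, 100.5 and 363 CPM, and ATP6, of ATP synthase, at 45.3, 18.4 and 145 CPM. These proteins are among the core subunits of complexes III, IV and V. Of the genes for complex I, ND4 was at 82.1, 34.9 and 183 CPM, ND5 at 136, 29.8 and 178 CPM and ND1 at 128, 87.4 and 146 CPM. All 8 were lowest in replicate 2 and highest in replicate 3, and 7 of 8 had a CV of 0.5 or more, against 5.72% of all genes. Their sum was 1875, 874 and 3102 CPM, or 0.21%, 0.0745% and 0.325% of all counts, so the order held by library totals too. ND1 and ATP6 share exon bases in the annotation, but only where ND1 ends at 2635 and ATP6 begins at 2634. ND5 and ND3 also share exon bases. Mitochondrial transcripts are cut from long precursors, so that a share of these reads cannot be given to 1 gene with certainty. The 4 genes not detected were ND2 at 1.0502, 0.665 and 0.769 CPM, ND3 at 1.13, 0.499 and 1.36 CPM, ND6 at 2.02, 1.16 and 1.58 CPM and ND4L at 0.126, 0.222 and 0.452 CPM.

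Calcium handling was of interest because the compound given to the worms of the other libraries inhibits the mitochondrial sodium/calcium exchanger. Genes of calcium handling were detected 28 of 32, at a median of 17.5 CPM per kb. They span channels that let calcium in, pumps and exchangers that move it out, and the proteins that store it. The voltage-dependent anion channel gene *vdac-1* of the outer mitochondrial membrane was at 539, 701 and 527 CPM and the calreticulin gene *crt-1*, which buffers calcium in the endoplasmic reticulum, at 675, 1027 and 697 CPM. The Golgi pump gene *pmr-1* was the steadiest at 77.4, 70.1 and 76.1 CPM (CV 0.0526), and *itr-1*, the long gene of the inositol trisphosphate receptor, the most variable at 48.6, 12.5 and 39.0 CPM (CV 0.559), lowest in replicate 2. The sum of the list was 3469, 4470.0 and 3453 CPM, highest in replicate 2 after TMM and in replicate 1 by library totals, whereas the list's median level was lowest in replicate 2. The 10 sodium/calcium exchanger genes (ncx) divided by level. The gene *ncx-2* was the highest at 66.7, 60.9 and 48.0 CPM, or 15.6 CPM per kb, and *ncx-1* followed at 20.8, 22.4 and 19.7 CPM, or 7.43 CPM per kb. Then came *ncx-3* at 10.5, 3.22 and 8.19 CPM, *ncx-7* at 4.41, 3.49 and 3.62 CPM, *ncx-4* at 4.03, 2.66 and 3.03 CPM and *ncx-8* at 4.24, 2.49 and 3.30 CPM. Per kb these 4 lay between 1.44 and 2.67 CPM and their ranges overlapped, while *ncx-1* and *ncx-2* stood above them and apart from each other in every library. Of the 6, *ncx-1* (CV 0.0651) was even and *ncx-3* (CV 0.51) was more than 3-fold lower in replicate 2 than in replicate 1. Under 1 CPM in at least 1 library were *ncx-9* with 49, 11 and 33 counts, *ncx-10* with 38, 22 and 15, *ncx-6* with 15, 14 and 18 and *ncx-5* with 7, 5 and 3. The exons of *ncx-1*, *ncx-4* and *ncx-6* overlap those of a gene on the other strand, and whether the counting used the strand was not given in the sources used here.

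Genes of lifespan pathways were detected 34 of 36, at a median of 16.38 CPM per kb, close to that of all detected genes. They include insulin signalling, TOR and AMPK kinases and the transcription factors below them. The Rieske protein gene *isp-1* of complex III was the highest at 308, 502 and 294 CPM, then *nuo-6* of complex I per kb at 73.3, 104 and 68.5 CPM. The gene *atfs-1*, for the factor that senses failed mitochondrial import, was nearly identical in the libraries at 38.9, 38.8 and 38.4 CPM (CV 0.00649). The phosphatase gene *daf-18*, which opposes insulin signalling, was the most variable at 261, 106 and 356 CPM (CV 0.524). It was 2-fold or more below both others in replicate 2, as were 2 more of the 31 genes of the list at 10 CPM or more, against 7.44% of all genes. Of stress response genes 23 of 33 were detected. The chaperone gene *hsp-90* was at 2657, 4068 and 2913 CPM and *sip-1*, a small heat shock protein gene of oocytes and embryos, at 1039.6, 2116 and 1387 CPM (CV 0.363), while the catalase gene *ctl-2* was nearly even at 81.2, 85.4 and 82.5 CPM. The genes for the heat-induced hsp-16 proteins were not detected, the highest in any library being *hsp-16.2* at 0.378, 1.053 and 0.0905 CPM, but several are near-identical copies whose single counts are uncertain, and hsp-16.11 and hsp-16.49 were not matched to an identifier. Genes often used as references in quantitative PCR were all detected (21 of 21), at CVs with a median of 0.253. The prefoldin gene *pfd-6* was the steadiest at 70.8, 76.6 and 68.1 CPM (CV 0.0603), and *rbd-1*, needed for ribosomal RNA maturation, the least steady at 34.1, 9.81 and 26.6 CPM (CV 0.529). The ribosomal genes used as references, *rps-23* (CV 0.357) and *rpl-32* at 1595, 2529 and 1333 CPM (CV 0.346), shared the ribosomal pattern. Of the commonly used references named after their values were seen, *cdc-42* was at 193, 210.3 and 219 CPM (CV 0.0635), *pmp-3* at 61.3, 65.1 and 77.97 CPM (CV 0.128) and *act-1* at 129, 205 and 124 CPM (CV 0.294).

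The spread between libraries was larger than counting error at nearly every level. Over the 7401 detected genes at 10 CPM or more the median CV was 0.206, with quartiles of 0.13 and 0.304, against a median counting error of 0.0331. The CV was no larger than counting error in 163 genes. By level, the median CV fell from 0.22 between 10 and 20 CPM to 0.186 between 100 and 500 CPM and was higher, at 0.297, in the 261 genes at 500 CPM or more, which hold the yolk and ribosomal genes described above. A CV of 0.5 or more was found in 423 genes (5.72%) and one of 0.05 or less in 282 (3.81%). Of the variable genes 316 were lowest in replicate 2 (74.7%, against 37.9% of all genes). Without replicate 2 the count of variable genes was 190 and the median CV 0.123, without replicate 1 they were 682 and 0.182, and without replicate 3 they were 822 and 0.209. A CV of 2 values is less certain than one of 3. Scaled by library totals alone, 718 genes had a CV of 0.5 or more.

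**Figure D3:**
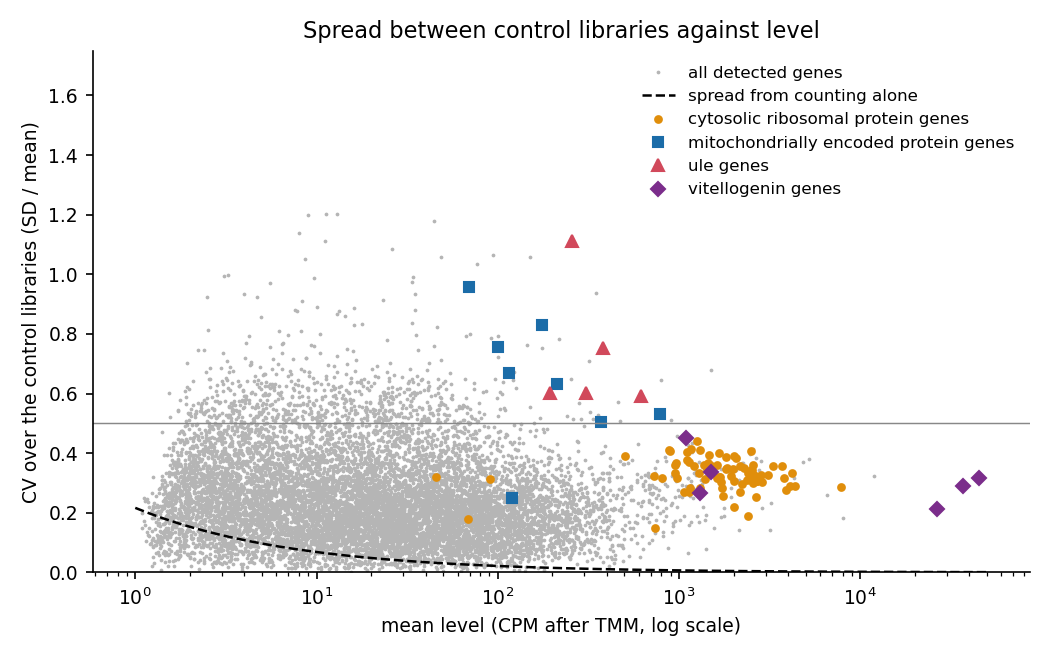
CV over the 3 control libraries against mean level (CPM after TMM, log scale) for every detected gene, with the spread that counting alone would give (dashed) and the bound of 0.5 (grey line). Most genes lie well above the dashed line, ribosomal protein genes cluster near a CV of 0.326, and the ule genes and all but 1 of the mitochondrially encoded genes lie on or above 0.5.

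The least even of the abundant genes formed a small group that was low in replicate 1 and high in replicate 3. At 50 CPM or more the highest CV belonged to *ule-5* (WBGene00013394), at 35.7, 154 and 578 CPM (CV 1.11). The ule genes are named for protein expression in the uterine lumen. Beside *ule-5* on chromosome X lie 3 genes with the same order of libraries, *Y62H9A.3* at 18.3, 56.1 and 208 CPM, *Y62H9A.4* at 7.23, 32.3 and 106 CPM and *Y62H9A.5* at 62.7, 278 and 705 CPM, and the 4 genes, which span 11879110 to 11884042, were all the protein-coding genes in that stretch. Elsewhere on X, 3 of 4 neighbouring coding genes were also lowest in replicate 1, *ZK813.7* at 9.70, 56.4 and 165 CPM, *ZK813.1* at 23.9, 169.8 and 239.9 CPM and *ZK813.3* at 46.2, 219 and 388 CPM. The other ule genes, named after the values of *ule-5* were seen, followed: *ule-1* at 96.6, 385 and 443 CPM, *ule-2* at 87.1, 177 and 320.0 CPM, *ule-3* at 98.6, 369 and 670.1 CPM and *ule-4* at 198, 862 and 798 CPM. All 5 had a CV of at least 0.59 and were lowest in replicate 1, and 4 were highest in replicate 3. Also among the 10 highest CVs were *Y57G11B.5* at 26.2, 95.5 and 330.0 CPM and *F55B11.2* at 18.8, 62.03 and 130.3 CPM, of the same order, ATP6 and COX2 of mitochondrial DNA, *asah-1*, an acid ceramidase gene, at 47.9, 193 and 61.5 CPM, and *F42A10.7* at 68.7, 118 and 12.8 CPM, the only one lowest in replicate 3. Of 36 collagen genes with the symbol col at 10 CPM or more, 10 had a CV of 0.5 or more, against 5.72% of all genes. Replicate 2 was the highest library for 30 of them, against 41.3%, and replicate 1 the lowest for 25, against 2661 of 7401 genes (35.95%) over all. Their sum was 13588, 28567 and 24159 CPM, and 15224, 24359 and 25288 CPM by library totals, by which replicate 3 was the highest. In all, 9 stretches of the genome held at least 3 variable coding genes with gaps of up to 10000 bases between them. Besides those on X, a stretch of chromosome V with 5 variable genes was lowest in replicate 1, with a summed level of 204, 565 and 764 CPM. The remaining 6 were lowest in replicate 2, among them that of mitochondrial DNA and one on chromosome III with *dcr-1*, which encodes Dicer, and its neighbours *grp-1* and *vms-1*, at a sum of 213, 57.4 and 170.0 CPM.

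**Figure D4:**
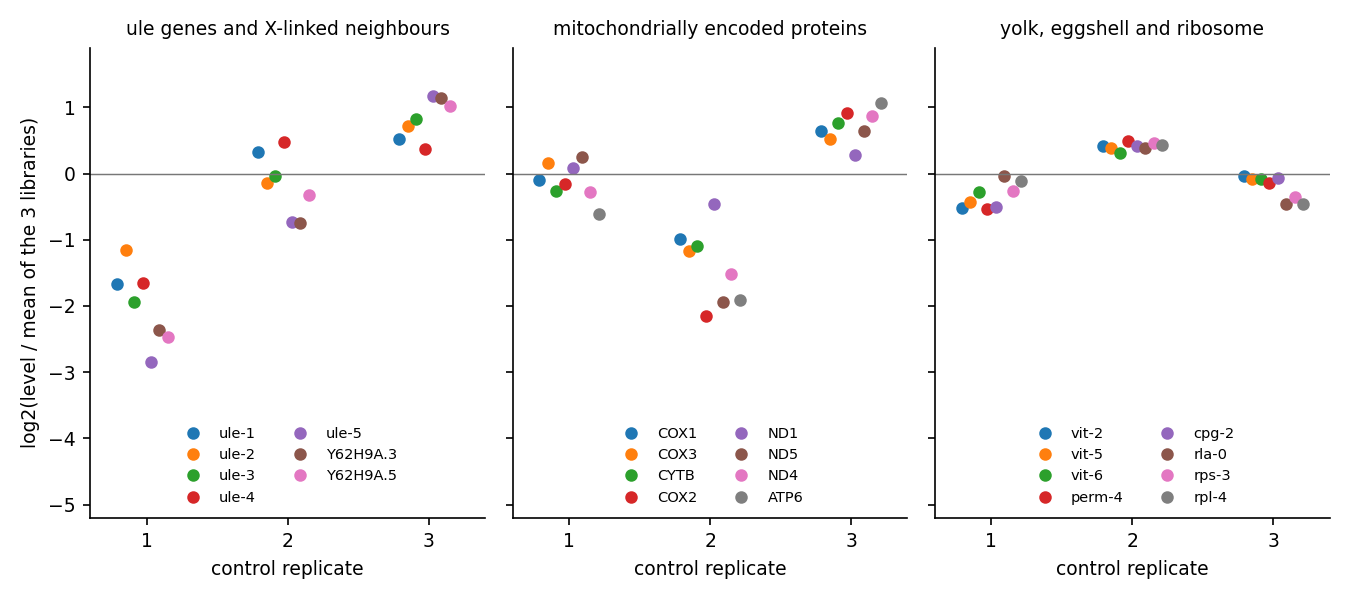
Level of single genes in each control library relative to their own mean (log2, after TMM; replicates have no order and each point is 1 library). The ule genes and their neighbours on X are lowest in replicate 1, the mitochondrially encoded protein genes lowest in replicate 2 and highest in replicate 3, and the yolk, eggshell and ribosomal genes highest in replicate 2.

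Replicate 2 had far more genes apart from the others than replicates 1 and 3. It was at least 2-fold below both others in 551 of 7401 genes (7.44%) and above both in 18 (0.243%). Scaled by library totals, the counts were 1020 below and 4 above. The genes low in replicate 2 were long, with a median exon length of 2472 bases against 1563 for all genes, and 66.1% of them were over 2 kb, against 34.5%. None was a ribosomal protein gene and 6 were mitochondrial, 5 of them protein genes. The largest ratio was at WBGene00001091, a pseudogene listed without a symbol, at 68.2, 3.44 and 28.8 CPM, followed by *golg-4* at 31.1, 4.32 and 28.9 CPM, *T10E9.2* at 24.4, 4.82 and 31.6 CPM, *prp-40*, a splicing factor gene, at 32.8, 6.65 and 36.1 CPM and *tbcd-1*, a tubulin chaperone gene, at 67.6, 9.76 and 47.9 CPM. Over all genes at 10 CPM or more, sorted by exon length into 5 groups, the median log2 ratio of replicate 2 to the mean of the others went from 0.25 in the shortest group, up to 885 bases, to -0.30 in the longest, from 2686 bases. It went the other way in replicate 3, from -0.17 to 0.16, and in replicate 1, from -0.14 to 0.10. These ratios are not independent, since replicate 2 is part of the mean that replicates 1 and 3 are divided by. A fall in replicate 2 alone would give a rise in both. Over 7399 genes, which share each library's depth, the correlation of the ratio with log2 length was -0.33 in replicate 2, 0.21 in replicate 1 and 0.24 in replicate 3. The same limit holds for these correlations. The ratio also followed the mean level, which the same libraries set, with a rank correlation of 0.26 in replicate 2, -0.28 in replicate 1 and -0.06 in replicate 3, beside rank correlations with length of -0.33, 0.17 and 0.30. In replicate 1 the correlation with level was the larger in size. When the median of each of 20 length groups was set equal between libraries, 465 genes were 2-fold below both others in replicate 2, and 422 of them were among the 551. The 465 genes still had a median exon length of 2059 bases, so the centring did not remove the difference in length. The part that RNA quality or library preparation had in this was not tested. The few genes above both others in replicate 2 were led by *hrg-7*, a secreted protease gene of haem signalling, at 49.5, 175 and 50.6 CPM, *asah-1*, *F53A9.8* at 30.9, 88.5 and 26.5 CPM, *hacd-1*, a hydroxyacyl-CoA dehydrogenase gene, at 17.8, 43.4 and 16.19 CPM and the collagen gene *col-159* at 16.7, 38.3 and 16.6 CPM, whose exons overlap those of *col-160*.

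**Figure D5:**
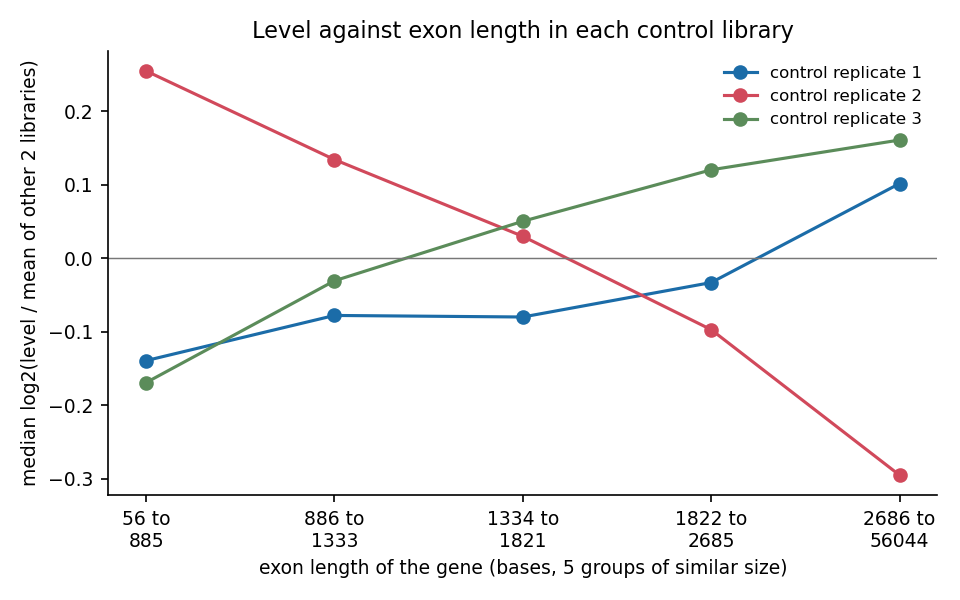
Median log2 ratio of each control library to the mean of the other 2, over genes at 10 CPM or more grouped by exon length (bases, 5 groups of similar gene number). Replicate 2 falls from 0.25 to -0.30 with length, and the other libraries are higher in the longest group than in the shortest. The ratios are not independent, since each library is part of the mean that the others are divided by.

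Replicate 1 was at least 2-fold below both others in 91 genes (1.23%) and above both in 21 (0.284%). Scaled by library totals, 51 were below and 55 above, so the side on which this library stood apart depended on the scaling. The genes low in replicate 1 were short, with a median exon length of 725 bases, and held 10 of the 36 collagens among the 7401 genes and all 5 ule genes. The largest ratios were at *W02D9.7* with 1.72, 23.8 and 44.3 CPM, *ZK813.1*, *ZK813.7*, *Y48E1B.8* at 5.42, 31.7 and 28.6 CPM and *Y37D8A.19* at 36.8, 189 and 299 CPM. The last 2 overlap a gene on the other strand. Those high in replicate 1 were led by WBGene00020981 at 55.4, 22.7 and 21.8 CPM, WBGene00001091, WBGene00018852 at 35.96, 15.0 and 15.2 CPM, which are 3 pseudogenes, *mrps-7*, a mitochondrial ribosomal protein gene, at 55.9, 24.4 and 16.6 CPM and *Y37H2A.14* at 41.5, 18.2 and 16.8 CPM. Replicate 3 was above both others in 43 genes (0.581%), among them 4 mitochondrial ones, and below both in 17 (0.230%). Above were *F55G11.4* at 9.70, 18.96 and 105 CPM, *F53H4.2* at 5.97, 13.7 and 58.2 CPM, *F17E9.4* at 13.2, 19.02 and 72.0 CPM, *col-183* at 19.2, 10.1 and 72.5 CPM and *ule-5*. Below were *F42A10.7*, *adh-1*, an alcohol dehydrogenase gene, at 61.2, 60.3 and 14.1 CPM, *acs-2*, an acyl-CoA synthetase gene that is raised by fasting, at 54.2, 37.1 and 10.99 CPM, *rrn-2.1*, an rRNA gene, at 94.8, 104 and 32.3 CPM and *col-129* at 33.4, 60.4 and 13.4 CPM.

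At the other end, 282 genes had a CV of 0.05 or less, and the 10 steadiest at 50 CPM or more included genes of RNA export, the nuclear pore and cell division. The gene *dhs-1*, of the short-chain dehydrogenases, was at 62.1, 62.8 and 62.7 CPM, *aly-3*, of mRNA export, at 142.7, 141 and 141 CPM and *npp-3*, a nucleoporin, at 133, 131 and 131 CPM. The securin gene *ify-1*, which holds sister chromatids together until anaphase, was at 180.4, 179 and 177 CPM, *zyg-9*, a microtubule-binding protein of oocytes and embryos, at 169, 164 and 166 CPM and *cdc-73*, of the Paf1 transcription complex, at 67.6, 66.9 and 68.3 CPM. The remaining 4 were *odr-8* at 124, 121.6 and 122.4 CPM, *casy-1*, a calsyntenin gene, at 64.02, 65.7 and 63.999 CPM, *K03H1.7* at 65.4, 67.5 and 66.8 CPM and *lcmt-1*, a methyltransferase gene, at 57.6, 57.05 and 59.02 CPM. Their CVs lay between 0.00565 and 0.0176, and their exons between 665 and 5443 bases. With 3 libraries and 3278 genes at 50 CPM or more, the smallest CVs are those that fell together in these libraries and they carry no error estimate of their own. The evenness also depends on the scaling. By library totals all 10 genes were lowest in replicate 2 and highest in replicate 1. On that scale *dhs-1* was at 69.6, 53.5 and 65.7 CPM and *cdc-73* at 75.7, 57.1 and 71.5 CPM. The gene *atfs-1* had the same order, at 43.6, 33.04 and 40.2 CPM. For *dhs-1*, *aly-3* and *atfs-1* the mean by library totals also differed from the mean after TMM by more than their SD.

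Apart from ribosomal RNA, the detected non-coding genes were led by WBGene00014309, a pseudogene listed without a symbol, at 463, 721 and 440.0 CPM, and by *W05H9.3* at 395, 375 and 547 CPM among the ncRNAs, with *C30E1.9* at 171, 111 and 109 CPM and *tts-1*, a long RNA known to associate with ribosomes in long-lived worms, at 161, 95.0 and 121.8 CPM. Among the 19 long intergenic RNAs, *lep-5*, which acts in developmental timing, was the highest at 39.8, 61.6 and 37.6 CPM and *linc-7* next at 33.2, 23.3 and 19.7 CPM. These were named after their values were seen. Of the antisense RNAs, *F53F1.14* was at 10.4, 6.65 and 3.17 CPM, and it overlaps *F53F1.2* on the other strand. Of all detected genes, 3099 (27.6%) share exon bases with another gene, and for these the counts of both partners may hold reads of the other.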

How the data were processed

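Total RNA of whole worms was sequenced from 6 libraries, of which the 3 untreated controls were used. The authors deposited raw counts per gene, whole numbers that are not normalised. The submitters' processing notes name HISAT2, featureCounts, DESeq2, edgeR and DESeq, without versions. The build, the annotation and the strand setting of the counting are not given in the sources used here. Mapped reads that fell outside genes are not in the totals. The same control columns stand in each deposited table with identical values. Columns of the authors' own comparison (fold changes, p-values and normalised values) were not used, and 0 columns lacked a sample. Gene models came from Ensembl release 115 (WBcel235), matched by gene identifier.

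A gene was kept at 1 CPM or more in every control library, by library totals. TMM factors were computed over these genes (edgeR 4.0.16, R 4.3.3). Spread is the CV, the SD over the mean of 3 libraries, and was read at a mean of 10 CPM or more. No test was run, as there is 1 group. Named in full were the 15 genes highest in CPM, the 10 coding genes highest per kb, the 10 with the highest and the 10 with the lowest CV at 50 CPM or more, the 5 furthest above and below both others in each library at 20 CPM or more, all vit and ncx genes, and in each list the 2 highest per kb and the ones of highest and lowest CV. Most genes outside this rule are marked as named after their values were seen, or stand beside one that it names. Some others, among them *end-1*, *hsp-16.2* and *dcr-1* with its neighbours, carry no such mark. The gene lists and the rule were chosen with earlier results of these data known. Alternatives were other scalings, other filters on low counts, other transcript lengths, edgeR's own estimate of spread and leaving out each library, and length centring was added after seeing the data. The calculations were tested on simulated data. Depth was 21122852 to 21245713 counts a library, and counting errors assume independent reads and cover counting only.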

Additional observations from a re-analysis of the deposited data

How the results depend on the processing

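The number of detected genes was between 9929 (at 2 CPM) and 12599 (at 0.5 CPM), was 11320 with the filter applied after TMM, and 11372 to 11893 when 1 library was left out. The 10 most abundant genes held 15.5% of the counts on average, and 14.4% to 16.40% when 1 library was left out. The median CV of 0.206 became 0.327 over every gene with a count and 0.279 as edgeR's biological coefficient of variation, which shrinks genes towards a trend, and lay between 0.123 (without replicate 2) and 0.209 (without replicate 3). The count of genes with a CV of 0.5 or more, 423, was 718 by library totals, 759 over all detected genes, which adds those under 10 CPM, and 190 (without replicate 2) to 822 (without replicate 3). The 741 calls of 1 library 2-fold above or below both others became 1203 by library totals and 2339 at a fold of 1.5, a lower bound. A gene can be called for more than 1 library, as WBGene00001091 was, so these are calls and not separate genes. The cause of the difference between the scalings was not tested. After centring by exon length, added after seeing the data, the median CV was 0.195, the count of variable genes 368 and that of calls of 1 library apart 654. The median levels of the gene lists moved by less than the SD between libraries with the longest transcript as length and with library totals as scaling. Of 128 named genes, the mean level moved by more than its SD under library totals in 3. Under library totals these checks on levels are weak, because the TMM factors lie on both sides of 1 and largely cancel in a mean. For *vit-2* the mean went from 45368 to 44364 CPM, with an SD of 14383. They do not cover the order of the libraries, and the library with the highest sum changed with the scaling for several lists. Depth limits single genes little at 10 CPM or more, where the median counting error was 0.0331. No paired analysis was possible because there is only 1 group of libraries.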
